A study of Homo sapiens with 6 samples.

Results

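The genes described here are 9 brakes of mTORC1, the protein kinase complex that drives cell growth: DDIT4, DDIT4L, SESN1, SESN2, SESN3, DEPTOR, TSC1, TSC2 and AKT1S1. They were chosen by name, with a rule that uses no measured value, from a table of 58735 genes in which each name stands on 1 row. Earlier results of these data were known when they were chosen, so their counts beside all tested genes are no independent support. All 9 had a mean of at least 1 FPKM, a fragment count scaled for gene length and library depth, and so were among the 12968 genes tested.

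The 6 RNA-seq libraries came from human cells of the induced pluripotent stem cell line Ff-I01s01, a reprogrammed line, labelled wild type (WT) and grown into what the labels call pancreatic progenitor cells. The Control group (n = 3) passed through the step named S3, from day 6 to day 8, without K-3, and the K-3 group (n = 3) received K-3 at 2 µM over the same days. The question stated by the submitters is what K-3 does to the differentiation of these cells. K-3 is a code name that the labels do not explain, a single line was used, and no label names separate differentiations, so the spread behind each p-value is that of these libraries and may be technical in origin.

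mTORC1 switches on protein and lipid synthesis and holds back autophagy when amino acids and growth factors are present. Growth factor signals reach it through RHEB, which the TSC complex, built on TSC1 and TSC2, switches off, while amino acid signals reach it through the Rag GTPases at the lysosome. DDIT4, also called REDD1, is a short-lived stress-induced protein that acts through the TSC complex, and DDIT4L, or REDD2, is its paralog. The sestrins bind GATOR2 and so keep the Rag arm off when amino acids are scarce. SESN2 is a leucine sensor and a target of ATF4, the transcription factor of the integrated stress response. SESN1 is a classic p53 target and SESN3 a FOXO target. DEPTOR and AKT1S1, also called PRAS40, bind the kinase complex itself and inhibit it. In the pancreas, mTORC1 is known for its part in the growth of progenitors and beta cells.

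DDIT4 and SESN2 were the only members that changed past the threshold, so the DNA just before their RefSeq transcript starts is shown (GRCh38.p14, plus strand for both). The capitals in the DDIT4 sequence mark ACGTG, the core of the element bound by the hypoxia factors.
DDIT4, chr10:72273674-72273919: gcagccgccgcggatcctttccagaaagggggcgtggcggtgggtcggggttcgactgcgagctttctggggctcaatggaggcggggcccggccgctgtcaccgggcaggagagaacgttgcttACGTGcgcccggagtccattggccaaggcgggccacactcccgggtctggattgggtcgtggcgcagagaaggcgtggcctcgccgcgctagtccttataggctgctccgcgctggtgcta
SESN2, chr1:28259268-28259517: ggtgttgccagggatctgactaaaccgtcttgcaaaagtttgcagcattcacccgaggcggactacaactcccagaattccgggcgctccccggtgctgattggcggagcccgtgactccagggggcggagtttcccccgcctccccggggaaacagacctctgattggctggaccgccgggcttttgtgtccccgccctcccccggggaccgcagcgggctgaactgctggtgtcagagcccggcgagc

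The letters of 4 elements were searched on both strands in windows of 250 bases before to 50 after each RefSeq start. They were TGATGNAA, the element bound by C/EBP and ATF factors, the hypoxia core shown in capitals for DDIT4, the FOXO element GTAAACA, and the p53 half-site. Of all 35116 windows, 3.62% held TGATGNAA, 21.4% held ACGTG, 3.42% held GTAAACA and 6.63% held the p53 half-site. The table holds 10 windows for 7 members, all but AKT1S1 and DEPTOR. DDIT4 held ACGTG, 125 bases before its start. The window of SESN2 held none of these letters, nor did those of DDIT4L, SESN3 and TSC1, which says only that the letters are not in these windows.

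Further matches lie in members that did not pass the test, and they are shown with their surroundings. In a window of TSC2, TGATGCAA lies 110 bases before the start and overlaps ACGTG, which stands there on both strands. In a window of SESN1, a p53 half-site lies 49 bases before the start. The capitals mark TGATGCAA in TSC2 and the p53 half-site in SESN1, which is read on the minus strand. The ACGTG of TSC2 is not marked.
TSC2, chr16:2047864-2047893: gccccgtcacgTGATGCAAggatcgccggc
SESN1, chr6:109009018-109009047: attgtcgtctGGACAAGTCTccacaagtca

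The depth was 35334645 to 38773637 fragments on genes in Control and 41839266 to 50199369 with K-3, so every K-3 library was deeper. Of 11 pancreatic progenitor markers 9 had a mean of at least 1 FPKM. The list summed to 494 to 530 FPKM in Control and 552 to 575 FPKM with K-3, and GATA4, GATA6, FOXA2 and HHEX gave most of that level. PDX1 averaged 14.3 FPKM in Control and 22.2 FPKM with K-3, and NKX6-1 was at 0 in all 6 libraries. The mean of GATA4 was higher with K-3 too (151 and 175 FPKM). Those of HHEX (89.4 and 86.2 FPKM) and ONECUT1 (8.98 and 8.14 FPKM) were lower. In limma 0 of these markers passed the threshold. Hepatocyte markers were abundant too, with 6 of 7 present and sums of 2634 to 2904 FPKM in Control and 2451 to 2600 FPKM with K-3. One of them fell, APOB, which codes for a lipoprotein (-0.50 on the log2 scale, limma adjusted p = 0.0182), a call lost without Control replicate 3 and without each K-3 replicate (adjusted p of 0.0664 to 0.0851). Pluripotent markers summed to 359 to 392 FPKM in Control and 358 to 365 FPKM with K-3. Of that list LIN28A gave most of the level, while POU5F1 averaged 0.233 and 0.214 FPKM and NANOG was near 0. Mesenchyme markers summed to 24.0 to 28.2 FPKM over all libraries, endothelial markers to at most 0.167 FPKM and neural markers to at most 0.938 FPKM. The progenitor sum was higher and the hepatocyte sum lower in every K-3 library than in every Control library. Of the abundant hepatocyte markers, TTR averaged 1391 FPKM in Control and 1217 FPKM with K-3. AFP averaged 874 and 855 FPKM, and APOA1, which was not lower, 392 and 397 FPKM. The part of these shifts and of the depth in the results below was not tested. In bulk libraries fewer cells of a type and less RNA per cell cannot be told apart.

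DDIT4 (ENSG00000168209, chromosome 10, 72273920 to 72276036, plus strand of GRCh38) fell to 47.6% of its Control level. It stood at 10.08, 9.03 and 10.03 FPKM in the Control libraries and at 4.08, 4.69 and 5.11 FPKM in the K-3 libraries. The groups lie far apart, and the lowest Control library is above the highest K-3 library. The means were 9.71 ± 0.59 FPKM in Control and 4.62 ± 0.518 FPKM with K-3 (SD, n = 3 each). On the scale of log2(FPKM + 1), where changes of weakly expressed genes come out too small, the difference was -0.93 (SE 0.076, 95% interval -1.11 to -0.75, limma with Benjamini-Hochberg adjustment over all tested genes, adjusted p = 0.0161). On that scale 34 of the 12968 tested genes were lower by more than DDIT4, a count that can miss weaker genes with a larger relative fall. The values rest on 418 to 792 fragments per library. Without K-3 replicate 2 the call was lost (adjusted p = 0.0719, log2 differences of -0.99 to -0.86 over the 6 fits that each leave out a library).

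DDIT4L (ENSG00000145358, chromosome 4, 100185870 to 100190782, minus strand), the paralog, gave 8.41, 8.44 and 8.18 FPKM in Control and 7.38, 8.61 and 9.09 FPKM with K-3. The Control values lie within the range of the K-3 values. The difference of log2 levels was -0.0016, with a 95% interval of -0.16 to 0.16 (limma adjusted p = 0.992), so a fall of the size seen for DDIT4 lies outside that interval. Within each library the ratio of DDIT4 to DDIT4L levels was 1.16 ± 0.0827 in Control and 0.553 ± 0.00851 with K-3 (SD, n = 3 each). By these values DDIT4 was the more abundant of the pair in every Control library and the less abundant in every K-3 library. Added together, the pair came to 18.1 ± 0.527 FPKM in Control and 13 ± 1.4 FPKM with K-3, and the share of DDIT4 was 51.7 to 55.1% in Control and 35.3 to 36.0% with K-3.

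**Figure D1:**
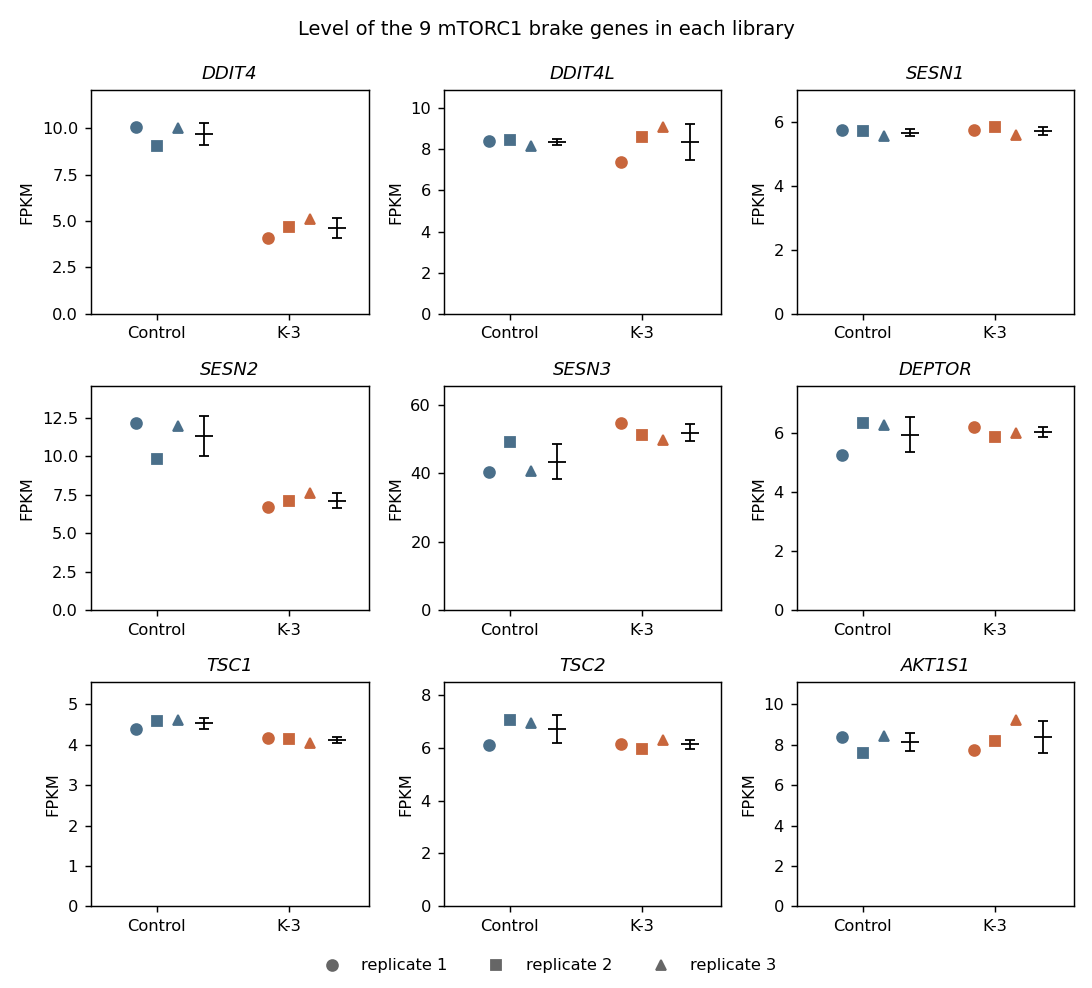
Level of each of the 9 mTORC1 brake genes in FPKM (vertical axes, each from 0) in the 3 Control and the 3 K-3 libraries, with 1 point per library (its shape gives the replicate number) and the group mean ± SD beside the points. DDIT4, SESN2 and TSC1 are lower in every K-3 library than in every Control library, SESN3 is higher in every K-3 library, and the groups of the other 5 genes overlap.

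SESN2 (ENSG00000130766, chromosome 1, 28259527 to 28282491, plus strand) fell to 62.9% of its Control level. Its levels were 12.15, 9.84 and 11.999 FPKM in Control and 6.69, 7.08 and 7.61 FPKM with K-3. Control replicate 2 is the lowest of its group and still above all K-3 libraries. The means were 11.3 ± 1.29 and 7.12 ± 0.46 FPKM (SD, n = 3 each), a difference of -0.60 on the log2 scale (SE 0.083, 95% interval -0.79 to -0.40, limma adjusted p = 0.0268). The call was lost in 4 of the 6 fits that leave out a library: without Control replicate 3 (adjusted p = 0.0988) and without K-3 replicate 1 (0.0969), 2 (0.117) or 3 (0.0931). The difference itself stayed between -0.69 and -0.55 on the log2 scale in all settings run. SESN2 is the member with 1 transcript and no exon bases shared with another gene, and it had 1058 to 1602 fragments per library.

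SESN3 (ENSG00000149212, chromosome 11, 95165513 to 95232541, minus strand) was the most abundant member and the one with the largest positive difference. It gave 40.3, 49.3 and 40.7 FPKM in Control and 54.7, 51.3 and 49.8 FPKM with K-3. Every K-3 library is above every Control library, with K-3 replicate 3 only just above Control replicate 2. The means were 43.4 ± 5.1 and 51.9 ± 2.51 FPKM (SD, n = 3 each), and the log2 difference of 0.26 (SE 0.082, 95% interval 0.06 to 0.45) did not pass (limma adjusted p = 0.138). Without Control replicate 2 it was 0.35 with an adjusted p of 0.0257, so 1 library decides the call.

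SESN1 (ENSG00000080546, chromosome 6, 108986437 to 109094819, minus strand) was the steadiest of the sestrins. Its levels were 5.77, 5.72 and 5.56 FPKM in Control and 5.75, 5.86 and 5.62 FPKM with K-3. The values of the groups interleave. The log2 difference was 0.01 with a 95% interval of -0.08 to 0.10 (limma adjusted p = 0.881).

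Because FPKM are per length, the sestrins can be added. The sum was 58.2, 64.9 and 58.2 FPKM in Control and 67.1, 64.2 and 63.0 FPKM with K-3. The groups overlap, since Control replicate 2 is higher than the replicates 2 and 3 of K-3. The share of SESN2 in the sum was 15.2 to 20.9% in Control and 9.96 to 12.1% with K-3, while that of SESN3 was 69.2 to 76.0% and 79.0 to 81.5%. The share of SESN1 was 9.43 ± 0.563% in Control and 8.86 ± 0.281% with K-3 (SD, n = 3 each). The ratio of SESN2 to SESN1 levels within a library was 1.99 ± 0.238 in Control and 1.24 ± 0.0999 with K-3, and that of SESN2 to SESN3 was 0.265 ± 0.0571 and 0.138 ± 0.0152. The sestrin make-up thus differed between the groups while the summed level overlapped. No p is given for sums, shares or ratios over members, and a permutation test of 3 against 3 libraries cannot go below 0.1.

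**Figure D2:**
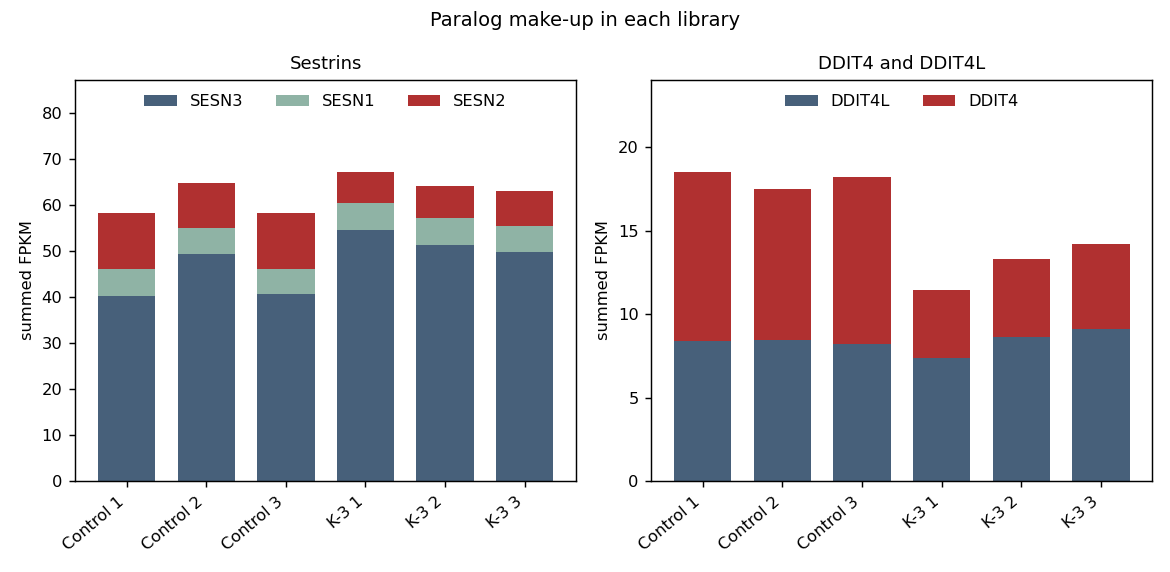
Summed level in FPKM (bars from 0, stacked by gene) of the 3 sestrins on the left and of DDIT4 and DDIT4L on the right, in each of the 6 libraries. The sestrin sums are 58.2 to 64.9 FPKM in Control and 63.0 to 67.1 FPKM with K-3, with a smaller SESN2 layer in every K-3 library, and the sums of the DDIT4 pair are lower in every K-3 library.

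TSC1 (ENSG00000165699, chromosome 9, 132891348 to 132946874, minus strand), which codes for hamartin, the scaffold of the TSC complex, gave 4.38, 4.59 and 4.62 FPKM in Control and 4.17, 4.14 and 4.03 FPKM with K-3. The groups do not overlap, but the gap between them is small. The means of 4.53 ± 0.133 and 4.12 ± 0.0724 FPKM (SD, n = 3 each) differ by -0.11 on the log2 scale (SE 0.042, 95% interval -0.21 to -0.01), and the difference did not pass (limma adjusted p = 0.188).

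TSC2 (ENSG00000103197, chromosome 16, 2047465 to 2089487, plus strand) codes for tuberin, the subunit that switches RHEB off. It gave 6.09, 7.06 and 6.94 FPKM in Control and 6.14, 5.94 and 6.29 FPKM with K-3. Control replicate 1 lies among the K-3 libraries, and the other Control libraries are above them. The log2 difference was -0.11 with a 95% interval of -0.25 to 0.03 (limma adjusted p = 0.314). The balance of the pair was alike in both groups by value, with a ratio of TSC1 to TSC2 levels of 0.678 ± 0.036 in Control and 0.673 ± 0.0284 with K-3 (SD, n = 3 each). TBC1D7, the remaining subunit of the complex, had 2.02 and 2.18 FPKM (log2 difference 0.08, limma adjusted p = 0.492).

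DEPTOR (ENSG00000155792, chromosome 8, 119873717 to 120050913, plus strand) gave 5.25, 6.33 and 6.27 FPKM in Control and 6.20, 5.87 and 5.99 FPKM with K-3. The K-3 values lie inside the Control range. The log2 difference was 0.02 with a 95% interval of -0.14 to 0.18 (limma adjusted p = 0.897).

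AKT1S1 (ENSG00000204673, chromosome 19, 49869033 to 49878459, minus strand) gave 8.37, 7.61 and 8.44 FPKM in Control and 7.73, 8.17 and 9.25 FPKM with K-3. The groups overlap over most of their range. The log2 difference was 0.04 with a 95% interval of -0.13 to 0.20 (limma adjusted p = 0.797).

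Of the 9 members 2 were lower past the threshold, against 0.91% of all tested genes, and 0 were higher in limma, against 1.17%. Before adjustment (p under 0.05) there were 3 lower (DDIT4, SESN2 and TSC1) and 1 higher (SESN3), and limma voom on recovered fragments also called 2 lower and 0 higher. Over all tested genes the unadjusted shares were 10.4% lower and 11.7% higher and the voom shares 2.64% and 2.96%, so 1 of 9 higher is near the background. Every K-3 library lay below every Control library for 3 members, DDIT4, SESN2 and TSC1, against 12% of all tested genes, and above for SESN3 alone, against 15.4%. The median log2 difference over the members was -0.0016, beside 0.013 over all tested genes. The falls of DDIT4 and SESN2 stand beside paralogs with intervals around 0 or, for SESN3, above it.

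**Figure D3:**
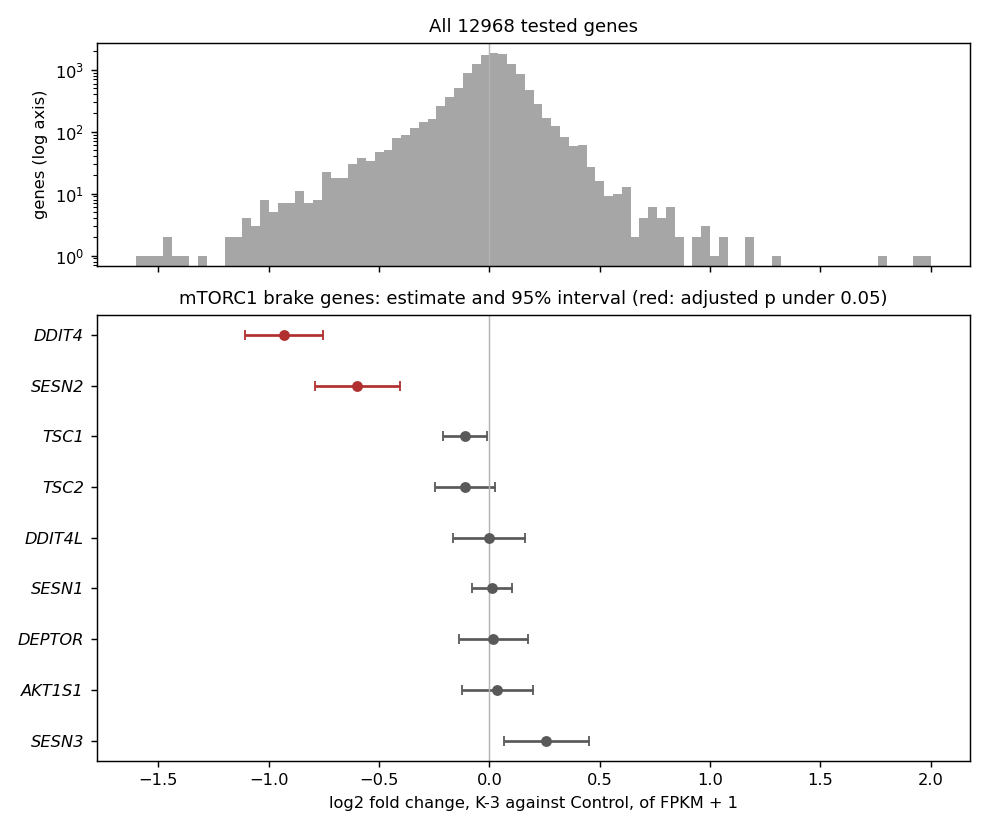
The upper panel counts all 12968 tested genes (log axis) by their difference of K-3 minus Control on the log2(FPKM + 1) scale, and the lower panel gives each member's difference with its 95% interval, red where the adjusted p passed. The intervals of DDIT4 and SESN2 lie wholly below 0 and apart from those of DDIT4L and SESN1, and the intervals of TSC1 (below 0) and SESN3 (above 0) did not pass the adjusted threshold.

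The order of the levels in Control was SESN3, SESN2, DDIT4, DDIT4L, AKT1S1, TSC2, DEPTOR, SESN1 and TSC1, from 43.4 to 4.53 FPKM. The ranges over libraries overlap between SESN2 and DDIT4, between DDIT4L and AKT1S1, between TSC2 and DEPTOR and between DEPTOR and SESN1, so these neighbours are not separated. With K-3 the order was SESN3, AKT1S1, DDIT4L, SESN2, TSC2, DEPTOR, SESN1, DDIT4 and TSC1, from 51.9 to 4.12 FPKM. There the neighbours AKT1S1 and DDIT4L, DDIT4L and SESN2, TSC2 and DEPTOR, and DDIT4 and TSC1 overlap. DDIT4 went from the upper members to the level of TSC1, and SESN3 stayed apart at the top.

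These levels depend on the gene length that the authors used, which is that of all annotated exons merged. For TSC2, with 69 annotated transcripts, the merged 19626 bases are 3.094 times its longest coding transcript of 6344 bases, and on that length its mean over the 6 libraries would be 19.8 in place of 6.41 FPKM. For TSC1 the factor is 2.02 and the mean 8.73 in place of 4.32 FPKM. For AKT1S1 it is 1.576 (13 in place of 8.26 FPKM), and for SESN1 1.459 (8.34 in place of 5.71 FPKM), while SESN2 has a factor of 1 and SESN3 of 1.106. The places of TSC2, TSC1, AKT1S1 and SESN1 in the order, and the size of the ratio of SESN2 to SESN1, are therefore uncertain, while differences between the groups do not depend on the length other than through the pseudocount.

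Neither labels nor notes say if strand was used in counting, so reads of overlapping genes cannot be told apart. DDIT4 shares 41.16% of its exon bases with DDIT4-AS1 on the other strand, which was listed at 0 in all 6 libraries. The level of DDIT4 beside those of DDIT4L and TSC1 is uncertain for that reason. TSC2 shares 3.96% with PKD1, the polycystin gene (5.69 ± 0.472 and 4.91 ± 0.287 FPKM, log2 difference -0.18, limma adjusted p = 0.176), and 2.05% with NTHL1, a DNA repair gene (log2 difference 0.11, adjusted p = 0.242). AKT1S1 shares 6.83% with TBC1D17, which differed by 0.03 on the log2 scale (limma adjusted p = 0.656). The partners of DDIT4L, SESN1, SESN3, DEPTOR and TSC1 were under the minimum mean.

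The machinery around the brakes was read from the same fit. Of 69 tested genes in 8 lists that cover the kinase complexes, the Rag and GATOR arms, the insulin and AMPK inputs and the substrates, 1 was lower and 0 were higher (1.45% called in limma, beside 2.08% of all tested genes, with differences from -0.34 to 0.20 and a median of 0.02). At an unadjusted p under 0.05 limma gave 5 lower and 5 higher, and voom called 2 lower and 1 higher. Over all tested genes 10.4% were lower and 11.7% higher before adjustment, and voom called 2.64% and 2.96%. The one that fell was LPIN1, a lipid phosphatase that mTORC1 phosphorylates. It went from 3.49 ± 0.139 to 2.55 ± 0.0776 FPKM (SD, n = 3 each; log2 difference -0.34, limma adjusted p = 0.0302). Its adjusted p was 0.119 without Control replicate 3 and 0.107, 0.117 and 0.103 without K-3 replicate 1, 2 and 3, so the call was lost in these 4 fits.

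Of the kinase complex and RHEB 0 of 6 passed in limma, with 11.5 and 11.1 FPKM for MTOR, the kinase (log2 difference -0.04, adjusted p = 0.623), and a median of 0.03 for the list. Of the mTORC2 subunits 0 of 3 passed, with 0.13 for MAPKAP1, a core subunit (adjusted p = 0.115). Of GATOR2, the complex that sestrins bind, 0 of 5 passed, and its median was -0.01. The smallest p of that list belonged to the subunit WDR59, with -0.06 (adjusted p = 0.396). Before adjustment (p under 0.05) 2 were higher in the kinase complex list (TTI1, an assembly factor, and the subunit MLST8), 1 higher in mTORC2 (MAPKAP1) and 0 in GATOR2, and voom called 0 in all 3 lists.

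GATOR1 switches RagA and RagB off, and KICSTOR holds it at the lysosome. Of this group 0 of 6 passed, with 0.20 for NPRL3 (adjusted p = 0.0667). Of the Rag GTPases and the Ragulator, which anchor mTORC1 to the lysosome, 0 of 12 passed, and the median was 0.01. Of 4 tested genes of other amino acid sensors and TBC1D7, 0 passed in limma. Neither of these last lists had a gene with an unadjusted p under 0.05 or a call in voom, whereas voom called 1 gene of the GATOR1 group higher. The insulin, AKT and AMPK inputs had 0 of 18 past the threshold, with 1 higher and 2 lower before adjustment (p under 0.05), 0 calls in voom, and a median of -0.02. IRS1, the docking protein of the insulin receptor, had 14.3 and 12.4 FPKM (log2 difference -0.19, adjusted p = 0.119). LPIN1 was the 1 of 15 substrates and effectors past the threshold, and GRB10, an adaptor stabilised by mTORC1, had -0.18 (adjusted p = 0.0661).

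TFEB is the lysosomal transcription factor that mTORC1 keeps out of the nucleus. TFEB itself averaged 0.069 FPKM in Control and 0.081 FPKM with K-3, under the minimum mean. Of 18 of its lysosome and autophagy targets 0 passed in limma, with a median of -0.004. Before adjustment 4 were higher and 2 lower (p under 0.05), beside 10.4% lower and 11.7% higher over all tested genes, and voom called 1 higher. The smallest p was that of CTSB, which codes for cathepsin B, at 75.5 and 94.0 FPKM (log2 difference 0.32, adjusted p = 0.0685).

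Lists of target genes were then read by their upstream regulator. ATF4 itself fell from 116, 106 and 108 FPKM in Control to 84.0, 84.8 and 84.3 FPKM with K-3 (log2 difference -0.38, limma adjusted p = 0.0253). Of 25 tested genes of the ATF4 response other than the members, 9 were lower and 0 higher, with a median of -0.32, and 22 of the differences were negative. Voom called 15 of them lower and 0 higher, and 18 were lower before adjustment (p under 0.05). Over all tested genes 0.91% were lower in limma, 2.64% in voom and 10.4% before adjustment. CHAC1, which breaks down glutathione, gave -1.42 (adjusted p = 0.00733). MTHFD2, of mitochondrial folate metabolism, gave -1.11 (adjusted p = 0.0169), and PSAT1, of serine synthesis, gave -0.84 (adjusted p = 0.0169). SLC7A11, the cystine transporter, gave -1.01 (adjusted p = 0.0189). The fall of this response was already known when the lists were chosen, so it is no independent support. The count of 9 changed when 1 library was left out. It was 8, 15 and 4 without Control replicate 1, 2 and 3 and 1, 0 and 1 without K-3 replicate 1, 2 and 3. Over all tested genes the same fits called 440, 229 and 10 lower, then 5, 0 and 3. The medians of the list were -0.41 to -0.31 in these fits. The call of ATF4 was lost without Control replicate 3 and without each K-3 replicate (adjusted p of 0.0881 to 0.117).

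Targets of other regulators known to act on members had 0 calls in limma in 3 lists and 1 in the list of glucocorticoid targets. Of 19 tested p53 targets 0 passed (median 0.05, with 0.23 and an adjusted p of 0.0919 for GADD45A, a growth arrest gene). Of 15 FOXO targets 0 passed (median 0.08, with 0.21 and an adjusted p of 0.0618 for TXNIP, the thioredoxin inhibitor). Of 17 hypoxia targets 0 passed (median -0.01, with 0.22 and an adjusted p of 0.0842 for HK2, a hexokinase). Before adjustment (p under 0.05) there were 4 p53 targets higher, 3 FOXO targets higher and 2 lower, and 3 hypoxia targets each way, beside 10.4% lower and 11.7% higher over all tested genes, and voom called 2 p53 targets and 1 FOXO target higher and 0 hypoxia targets. Of 6 glucocorticoid targets 1 rose, TSC22D3, which codes for the leucine zipper protein GILZ. It went from 7.04 ± 0.669 to 9.6 ± 0.534 FPKM (SD, n = 3 each, log2 difference 0.40, limma adjusted p = 0.0402). Its call too was lost without Control replicate 3 and without each K-3 replicate (adjusted p of 0.103 to 0.142). Of that list 2 were higher and 0 lower before adjustment (limma p under 0.05), and voom called 2 higher. Over all tested genes limma called 0.91% lower and 1.17% higher, and voom 2.64% and 2.96%. Among 10 transcription factors that act on members, ATF4 fell and 9 did not pass. Before adjustment (limma p under 0.05) 3 of the 10 were lower and 1 higher, and voom called 1 lower and 1 higher. FOXO3, which acts on SESN3, had 9.45 and 11 FPKM (log2 difference 0.20, adjusted p = 0.0543), and CEBPB, a partner of ATF4, had 8.39 ± 1.47 and 6.47 ± 0.173 FPKM (log2 difference -0.32, adjusted p = 0.139).

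**Figure D4:**
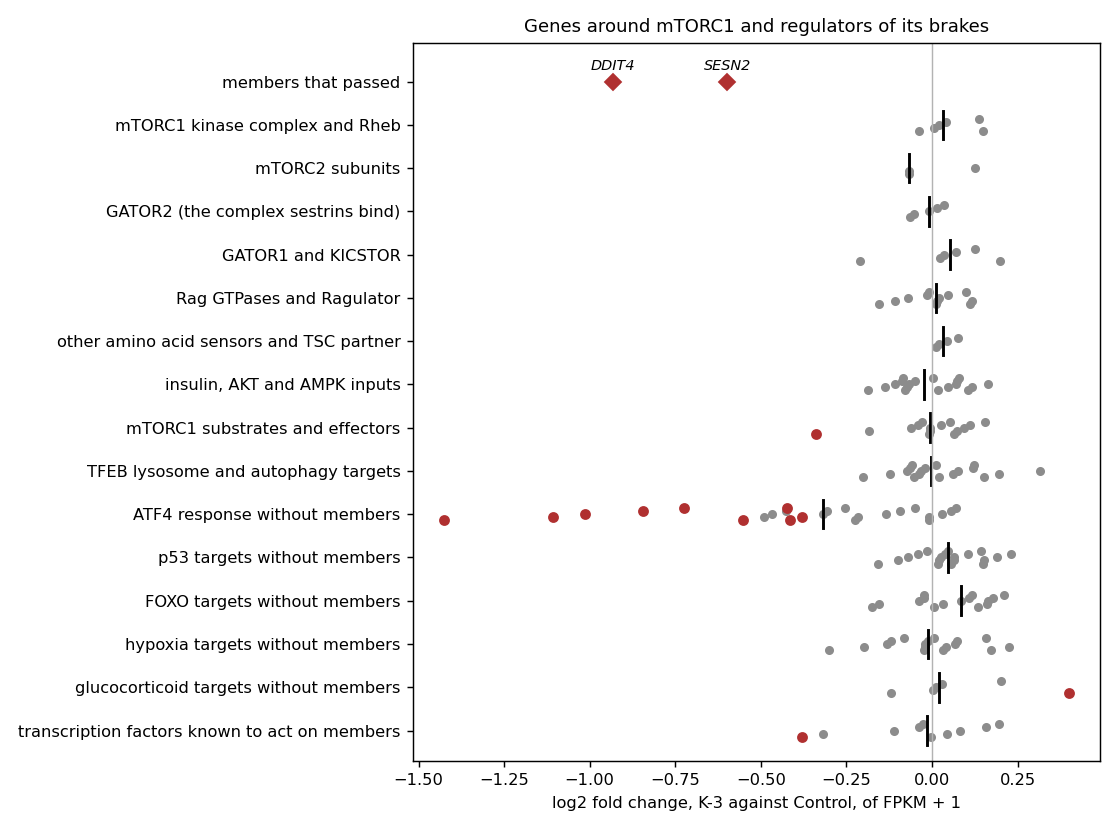
Difference of K-3 minus Control on the log2(FPKM + 1) scale for every tested gene of 15 lists, 1 row per list, with a point per gene, red where it passed the adjusted threshold, and a bar at the list's median; diamonds in the top row are DDIT4 and SESN2. The ATF4 row lies to the left with 9 red points and a median of -0.32, and the medians of the other rows lie between -0.07 and 0.08.

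The genes whose profiles over the 6 libraries were most like those of the members that changed were found by the root mean square difference of centred log2 levels. For DDIT4 they were JDP2 at 0.103, a transcription factor of the AP-1 group, ADM2 at 0.124, a peptide hormone, and PAPPA at 0.127, a protease of the IGF system. They differed by -0.80, -0.72 and -0.75 on the log2 scale (limma adjusted p = 0.00733, 0.0226 and 0.0456). JDP2 gave 3.14, 3.05 and 3.04 FPKM in Control and 1.320, 1.296 and 1.416 FPKM with K-3. For SESN2 they were PROM1 at 0.0475, a membrane glycoprotein, SLC7A7 at 0.0493, an amino acid transporter subunit, and SLC2A3 at 0.0568, a glucose transporter. PROM1 and SLC7A7 fell by 0.51 and 0.57 (adjusted p = 0.0343 and 0.0169). SLC2A3, with -0.55, did not pass (adjusted p = 0.0585). PROM1 went from 50.66, 42.67 and 49.996 FPKM to 30.7, 33.6 and 35.2 FPKM, with Control replicate 2 the lowest of its group as for SESN2. The measure includes the difference between the groups as well as the spread within them, so a gap between the groups comes with the choice of these genes. The call of JDP2 was lost without K-3 replicate 2 (adjusted p = 0.0719), and those of the other 4 that passed were lost in 4 or more of the 6 fits that leave out a library.

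**Figure D5:**
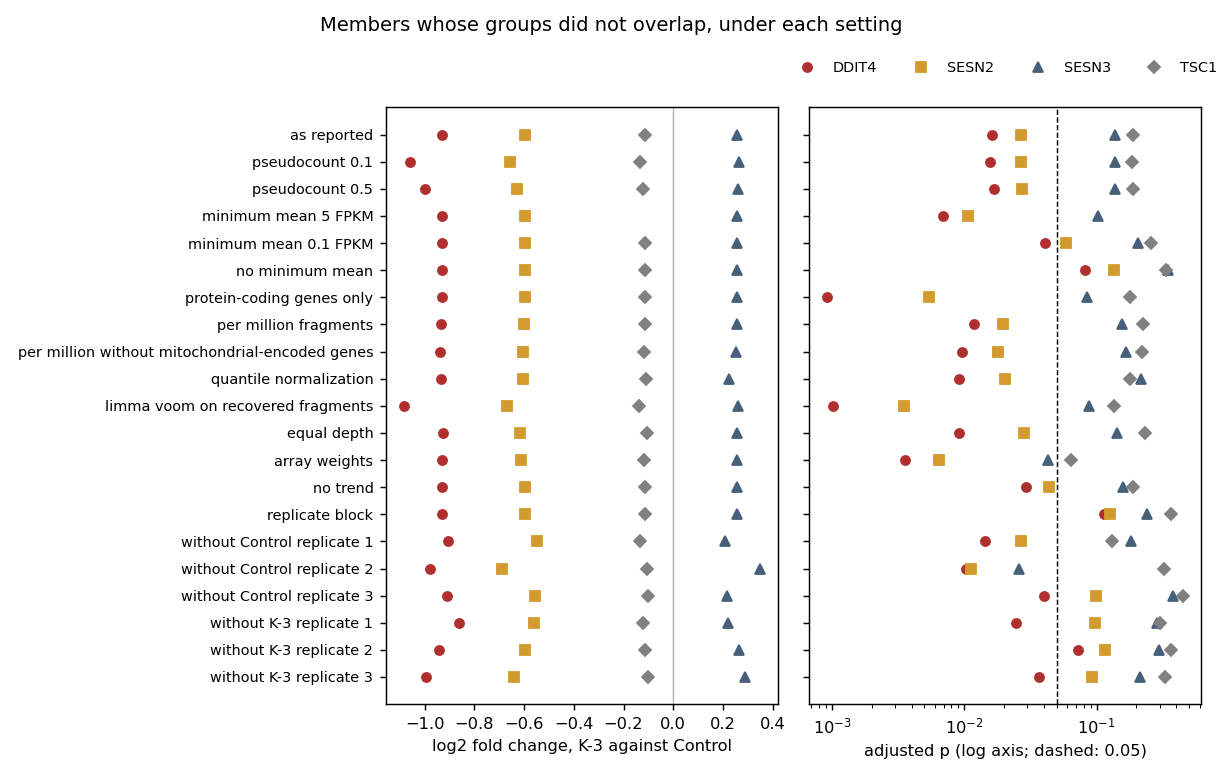
Difference of K-3 minus Control on the log2 scale (left) and adjusted p (right, log axis, dashed line at 0.05) for DDIT4, SESN2, SESN3 and TSC1, the members whose groups did not overlap, as reported and in 20 other settings, 1 row each (TSC1 in all but the minimum mean of 5 FPKM). DDIT4 lies between -1.08 and -0.86 and SESN2 between -0.69 and -0.55, TSC1 stays below 0 and SESN3 above it, while the adjusted p of all but TSC1 lies on both sides of the line.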

How the data were processed

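Poly-T-selected RNA was sequenced in pairs of reads, per the labels' protocols, which cover directional as well as non-directional libraries and leave the strand setting unstated. The authors deposited FPKM per gene and library. The submitters' processing notes name the build GRCh38 with DESeq2 1.20.0, HISAT2 2.0.5 and featureCounts 1.5.0-p3. Gene starts and ends equal GENCODE 29 for all 58216 IDs compared.

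FPKM are not counts, so limma 3.58.1 (lmFit, eBayes with trend; R 4.3.3) was run on log2(FPKM + 1) for the 12968 genes whose mean reached 1 FPKM, two-sided, with Benjamini-Hochberg adjustment and a threshold of 0.05. Genes of the Y chromosome and XIST were left out. Whole fragments were recovered for 100% of values (within 1e-06) and gave the depths and the voom alternative, which called 384 genes higher and 343 lower. No 2 libraries agreed within sampling noise (chi-square per degree of freedom of 8.301 to 43.34). The fit was also run on simulated counts with the same independent noise for all genes. No structure of single libraries other than depth was simulated, so that run is no support for the calls.

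Named genes were the 9 members, up to 4 genes per list with the smallest p, the 3 genes nearest to each changed member, and genes sharing exon bases with members. APOB, as a fallen marker, was named after its value was seen, and so were the markers ONECUT1, TTR, AFP and APOA1. Members and lists were chosen with earlier results of these data known. ATF4, CEBPB, INSR and IRS2 each stand in 2 lists. Sequences are from RefSeq. A few genes that this rule takes are not reported here.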

Additional observations from a re-analysis of the deposited data

How the results depend on the processing

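DDIT4 kept its call in 12 of 14 other settings and SESN2 in 11 of 14; TSC1, TSC2, SESN3, DDIT4 and SESN2 kept their direction in all settings where they were tested. DDIT4 lost its call with no minimum mean (adjusted p = 0.0822) and with the replicate block (0.114), and SESN2 with a minimum mean of 0.1 FPKM (0.0591), with no minimum (0.135) and with the block (0.127). SESN3 gained one with array weights (0.26, adjusted p = 0.0428). TSC1 is under a minimum mean of 5 FPKM. Genes called higher and lower numbered 152 and 118 as reported, 237 and 169 at a minimum of 5 FPKM, 21 and 22 at 0.1 FPKM (1 member lower) and 0 and 0 with no minimum (0 members; 1901 and 2263 at an unadjusted p under 0.05), 402 and 285 for protein-coding genes only, 210 and 185 with quantile normalization, 384 and 343 with voom, 1091 and 963 with array weights (1 member higher, SESN3), and 80 and 63 with no trend. With the replicate block, limma called 0 and 0 genes and 0 members (1121 and 1011 genes and 3 members at an unadjusted p under 0.05). Correlations of the spread around the group means were -0.364, -0.034 and -0.1128 for libraries of the same number. Those of different number ran from -0.2703 to 0.3319. With 3 libraries per group these values cannot decide whether the numbers pair the libraries. Leaving out 1 library gave 0 to 275 genes higher and 0 to 440 lower, with 0 to 2 members lower and 0 to 1 higher; without K-3 replicate 2 limma called 0 genes (1050 and 970 at an unadjusted p under 0.05). Differences near 0 reversed: DDIT4L was 0.00105 at equal depth and 0.0228 with array weights, and DEPTOR -0.0347 with array weights. Over the fits without 1 library DDIT4L ran from -0.058 to 0.076, DEPTOR from -0.056 to 0.059, SESN1 from -0.0011 to 0.026 and AKT1S1 from -0.0301 to 0.086. The filters set the number of genes tested, and the unadjusted p-values moved with them too. For DDIT4 the unadjusted limma p was 3.72e-06 as reported, 2.45e-07 for protein-coding genes only and 2.49e-05 with no minimum. The log2 difference of DDIT4 was -0.93 in each of these fits, so only its p moved. The cause of these changes in p was not tested.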

Other observations

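Within the K-3 group, 4 members were lowest in replicate 1 and highest in replicate 3: DDIT4, DDIT4L, SESN2 and AKT1S1. SESN3 and TSC1 had the opposite order, with replicate 3 lowest and replicate 1 highest. K-3 replicate 1 is also the deepest library, with 50199369 fragments. Within Control, replicate 2 was the lowest for DDIT4, SESN2 and AKT1S1 and the highest for SESN3, DEPTOR, TSC2 and DDIT4L. SESN2 and SESN3 thus stood at opposite ends of both groups. The part of depth or of a library's own make-up in this order was not tested.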
